A study of Bos taurus with 15 samples.

Results

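Alpha-2-macroglobulin (A2M) and the inter-alpha-trypsin inhibitor genes were followed in the subcutaneous adipose tissue of dairy cows before and after calving. The members were the genes whose symbol was on a list of 9 (A2M, A2ML1, LRP1, AMBP, ITIH1, ITIH2, ITIH3, ITIH4 and ITIH5) in each of 6 tables of gene expression, and 8 of the 13896 genes were found. LRP1 was not analysed here. The list was chosen by symbol, with the differences in expression between the groups in these libraries known, so the values of the members in the 6 comparisons are given as a description and not as independent evidence.

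The tissue was taken by biopsy of the dewlap from primiparous Holstein cows, and total RNA without ribosomal RNA was sequenced in 15 libraries, 3 in each of 5 groups. The first group was sampled at -4 weeks peripartum (wkpp), before any experimental diet. Its 3 libraries are set against both diets below, and the diet that these cows received later is not stated. The labels divide the libraries after calving by diet, low energy (LE) or high energy (HE), fed since a month before calving and sampled at 1 and at 16 wkpp. The study formed its groups by measured energy balance at 1 wkpp, severe (SNEB) or moderate negative (MNEB), and sequenced cows at the extremes. Here the LE libraries are called SNEB and the HE libraries MNEB, a match that is inferred and that neither the labels nor the methods state. The study's supplement lists the libraries after calving by energy state, with the groups in the order of the labels, and names no diet for them. Libraries of a group are called a, b and c only to tell them apart, and nothing ties a letter in one group to the same letter in another.

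A2M is a large secreted protein that offers a bait stretch to proteases of every class and folds around the enzyme that cuts it. The complex is taken up by cells through LRP1, and A2ML1 is a relative of A2M known mainly from squamous epithelium. AMBP encodes the precursor of bikunin, a small Kunitz-type protease inhibitor with a chondroitin sulfate chain. The heavy chains made from ITIH1, ITIH2 and ITIH3 are linked to this chain, mostly in the liver, and can be moved from it onto hyaluronan of the extracellular matrix by TNFAIP6. ITIH4 is an acute phase protein of the same family without the bikunin link, and ITIH5 is expressed mostly outside the liver, adipose tissue included. In the RefSeq annotation of ARS-UCD2.0, a later assembly than that of the reads, ITIH4, ITIH3 and ITIH1 follow each other on a chromosome, and ITIH2 and ITIH5 are parted by a pseudogene, with another pseudogene inside ITIH5.

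Between 8129676 and 14652050 reads per library fell on exons at -4 wkpp and in SNEB, and between 2027116 and 7519973 in MNEB. These totals are over the 13891 genes whose counts per library could be solved, called solved genes, without spike-ins. Of exonic and spike-in reads together, synthetic spike-in RNAs took 1.29 to 9.04% at -4 wkpp and in SNEB, and 17.2 to 62.7% in MNEB. The library titles also carry a mark, m1 or m2, whose meaning is not stated. SNEB at 1 wkpp and MNEB at 16 wkpp have m2 and the other 3 groups m1, and the part of this mark in the levels was not tested. Adipocyte genes were present in each library, with summed normalized counts of 10970 to 59884 in MNEB and 43084 to 90403 in the other groups for the 7 markers analysed of a list of 8 (PLIN1, FABP4 and LEP among them). A normalized count is the number of reads divided by the size factor of the library, and it was calculated for reads on exons and for reads on the whole gene, introns included.

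A2M stood at a high level at -4 wkpp and in SNEB and at a low level in MNEB. At -4 wkpp, the normalized exonic counts of A2M were 28921, 29277 and 20453 in the 3 libraries. In SNEB, the libraries had 37547, 39515 and 24818 at 1 wkpp and 29118, 19487 and 36351 at 16 wkpp. In MNEB, they had 4682, 2443 and 4073 at 1 wkpp and 5382, 3344 and 3336 at 16 wkpp. The highest of the 6 MNEB libraries was far below the lowest of the other 9, and there was no such gap among the groups on either side. Of 10455 genes with a mean normalized exonic count of 10 or more, 5.85% were lower in the 6 MNEB libraries than in all others without overlap, and 9.79% were higher.

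**Figure D1:**
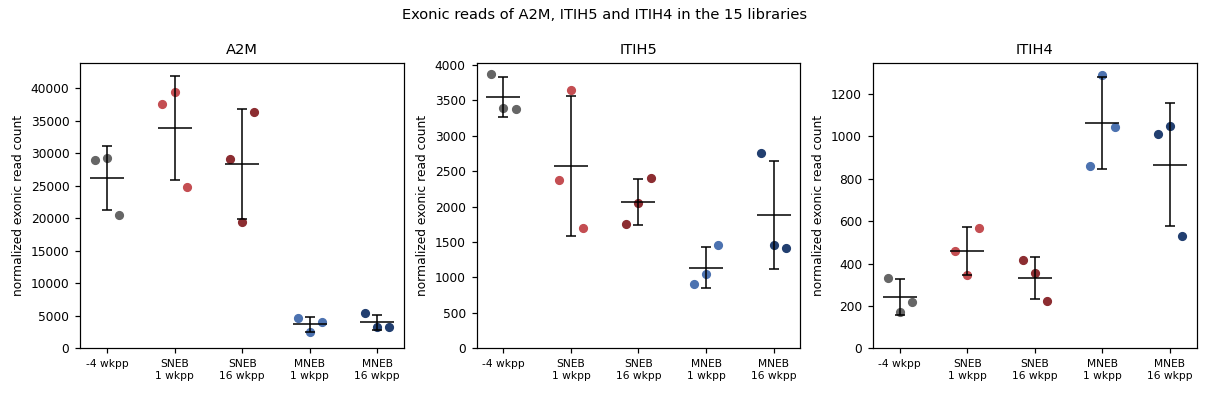
Normalized exonic read counts of A2M, ITIH5 and ITIH4 (vertical axes, from 0) in the 5 groups; points are the 3 libraries of a group and bars the mean with its SD (n = 3). For A2M the 6 MNEB libraries sit between 2443 and 5382 and all others at 19487 or above, whereas ITIH4 is higher in MNEB and ITIH5 is highest at -4 wkpp.

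In order of the means, A2M had normalized exonic counts of 33960 ± 7978 (SD, n = 3) in SNEB at 1 wkpp, 28319 ± 8460 in SNEB at 16 wkpp, 26217 ± 4995 at -4 wkpp, 4021 ± 1179 in MNEB at 16 wkpp and 3732 ± 1158 in MNEB at 1 wkpp. Neighbours in this order overlapped, except -4 wkpp and MNEB at 16 wkpp. As a share of the exonic reads of the solved genes, A2M accounted for 0.256 to 0.516% in the libraries at -4 wkpp and in SNEB, and for 0.0347 to 0.0732% in MNEB.

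Each comparison was fitted alone with limma (voom) over all genes whose exonic reads averaged 10 or more normalized counts, and a gene was called when its adjusted p was below 0.01 for exonic and for whole gene reads with the same sign. Between -4 wkpp and MNEB at 1 wkpp, A2M was 7.29-fold higher before calving in exonic reads (log2 fold change 2.87 ± 0.29, SE) and 6.52-fold higher in whole gene reads (2.71 ± 0.34), and it was called (limma adjusted p = 0.00018 and 0.0053). Of the 6 members tested in this comparison 2 were called, A2M and ITIH4, and the call rate over all genes was 2.92%. The call of A2M was kept when MNEB library a was left out and lost when any of the other 5 libraries was left out, with log2 fold changes of 2.58 to 3.08.

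From -4 wkpp to SNEB at 1 wkpp, the log2 fold change of A2M was -0.37 ± 0.25 in exonic reads, with a slightly higher mean after calving, and none of the 6 members tested was called (0.0559% of all genes). Between SNEB and MNEB at 1 wkpp, A2M was 9.45-fold higher in SNEB (log2 fold change 3.24 ± 0.30). Here the limma adjusted p was 0.0052 for exonic reads but 0.028 for whole gene reads, so A2M was not called, and neither was any other of the 6 members (0.0% of all genes). The study, with DESeq2 at the same threshold in both analyses, did report differentially expressed genes in this comparison. With limma, 3385 of 10475 genes tested had an unadjusted p below 0.05 in exonic reads of this comparison. In exonic reads alone, 108 genes, with A2M, passed an adjusted p of 0.01. Without MNEB library a, A2M was called, with a log2 fold change of 3.44.

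At 16 wkpp, A2M was 7.23-fold higher in SNEB than in MNEB in exonic reads (log2 fold change 2.85 ± 0.30) and 5.87-fold higher in whole gene reads (2.55 ± 0.27). It was the one member called of the 5 tested (limma adjusted p = 0.00079 and 0.0015), against 5.19% of all genes, and the call held without each of the 6 libraries in turn.

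Within each diet the level of A2M at 1 and at 16 wkpp overlapped. The study took biopsies of the same animals at each time, so libraries of a diet may come from the same cows, but they could not be tied to each other and were fitted as separate samples. The log2 fold change of 1 over 16 wkpp was -0.13 ± 0.30 in MNEB and 0.25 ± 0.29 in SNEB. The sign in MNEB turned when MNEB library b at 1 wkpp (0.15) or library a at 16 wkpp (0.10) was left out. None of the 4 members tested in MNEB and of the 5 tested in SNEB was called, with 0.0% of all genes called in each. With limma, 1335 genes in MNEB and 761 genes in SNEB had an unadjusted p below 0.05. The difference between the diets in this change was 0.39 ± 0.45 for A2M (limma adjusted p = 0.99), and over all genes 0.0% were called and 509 had an unadjusted p below 0.05.

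**Figure D2:**
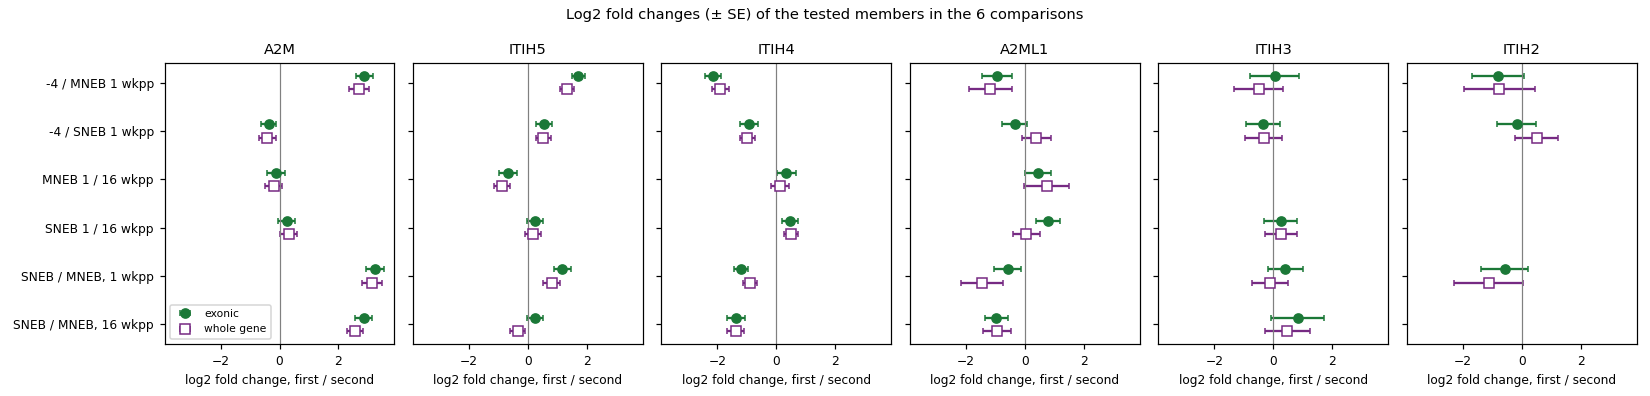
Log2 fold changes of the first over the second group (horizontal axis, with the SE as bars) for the 6 members tested, from exonic reads (filled circles) and whole gene reads (open squares), in the 6 comparisons; a missing row means that the mean exonic count was below 10. A2M is displaced to the right in the 3 comparisons that set MNEB after calving against another group, and ITIH4 to the left in the same 3.

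The number of exonic reads and the makeup of the MNEB libraries differed from the others along with A2M. Per the study's supplement, total reads per library were similar in all groups. A smaller share of them mapped uniquely in each of its MNEB libraries than in any other library, and more mapped to multiple places. The part of this in the levels was not tested. The MNEB libraries with the smallest spike-in share, 17.2% in library a at 1 wkpp and 17.2% in library a at 16 wkpp, had 4682 and 5382 normalized exonic counts of A2M in the same order. These values lay above those of the 4 MNEB libraries with fewer exonic reads, the highest of which was 4073, and below all libraries of the other groups. The 5 lymphatic endothelium markers analysed, of 6 listed, summed to 397 to 941 normalized counts in MNEB and to 2490 to 4732 in the other libraries. The 4 mast cell markers analysed summed to 247 to 523 in MNEB and to 1139 to 4517 elsewhere. The 6 skeletal muscle markers went the other way, with 1173 to 4084 in MNEB and 84.6 to 354 elsewhere. Other lists were apart in some comparisons and overlapped in others. The 5 fibroblast markers analysed, of 6 listed, summed to 181128 to 208830 at -4 wkpp and to 27688 to 61329 in MNEB at 1 wkpp, and at 16 wkpp to 114765 to 306931 in SNEB and 37042 to 58600 in MNEB, so they were lower in MNEB without overlap in both comparisons in which A2M was called. In SNEB at 1 wkpp, with 54280 to 142926, they overlapped with MNEB. The 5 macrophage markers analysed, of 6 listed, were at 10451 to 13711 in SNEB and 1970 to 2269 in MNEB at 16 wkpp, and at 7585 to 11737 in SNEB and 2010 to 6983 in MNEB at 1 wkpp, while the range at -4 wkpp (4975 to 7104) overlapped with the latter. Adipocyte markers were apart between SNEB (74801 to 90403) and MNEB (21428 to 59884) at 1 wkpp, and overlapped between -4 wkpp and MNEB at 1 wkpp and between the diets at 16 wkpp. Blood vessel endothelium markers (7 genes) were higher in MNEB at 1 wkpp (37115 to 71778) than at -4 wkpp (20474 to 25785), and overlapped between the diets at both times. At 16 wkpp, smooth muscle and pericyte markers summed to 27181 to 66846 in MNEB and 10591 to 22254 in SNEB, and keratinocyte markers to 195 to 296 and 334 to 368. No marker of these lists was at 0 in all libraries. The part of these shifts in the level of A2M was not tested, and in bulk tissue fewer cells of a type cannot be told apart from less RNA per cell.

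The genes with the pattern most like A2M were DERL2, TCTN1, SERPING1, EPHX1 and C1S, out of 8013 genes that averaged 100 normalized exonic counts or more. Pearson's r with A2M over the 15 libraries, on the log2 scale, was 0.979 for DERL2, 0.976 for TCTN1 and 0.969 for each of SERPING1, EPHX1 and C1S. SERPING1, the inhibitor of the complement protease C1s, averaged 9443 normalized counts at -4 wkpp and 1946 in MNEB at 1 wkpp. C1S, which encodes that protease, averaged 9019 and 1160. The libraries fall into a high and a low set for these genes, so r mostly reflects the distance between the sets.

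ITIH4 had higher means in MNEB than in the other groups and its lowest mean before calving. At -4 wkpp, its normalized exonic counts were 334, 173 and 220. The SNEB libraries had 461, 345 and 569 at 1 wkpp and 417, 356 and 222 at 16 wkpp. The MNEB libraries had 859, 1289 and 1044 at 1 wkpp and 1013, 1051 and 531 at 16 wkpp. All 3 MNEB libraries at 1 wkpp lay above every library at -4 wkpp and in SNEB, as they did for 16.3% of the 10455 genes, while library c of MNEB at 16 wkpp lay below the highest SNEB library of 1 wkpp.

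The means of ITIH4 were 1064 ± 216 (SD, n = 3) in MNEB at 1 wkpp, 865 ± 290 in MNEB at 16 wkpp, 458 ± 112 in SNEB at 1 wkpp, 332 ± 99.9 in SNEB at 16 wkpp and 242 ± 83.1 at -4 wkpp. Each neighbouring pair in this order overlapped. ITIH4 was 4.40-fold lower at -4 wkpp than in MNEB at 1 wkpp in exonic reads (log2 fold change -2.14 ± 0.27) and 3.74-fold lower in whole gene reads (-1.90 ± 0.28), and it was called (limma adjusted p = 0.00056 and 0.0070). As for A2M, the call held only when MNEB library a was the one left out, and the log2 fold change without 1 library ranged from -2.41 to -1.93.

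ITIH4 had a log2 fold change of -0.93 ± 0.29 between -4 wkpp and SNEB at 1 wkpp (limma adjusted p = 0.17). Between SNEB and MNEB in exonic reads it was -1.20 ± 0.25 at 1 wkpp (limma adjusted p = 0.017) and -1.37 ± 0.31 at 16 wkpp (0.013), both short of the call. In whole gene reads the difference was -0.90 ± 0.23 at 1 wkpp (limma adjusted p = 0.076) and -1.38 ± 0.29 at 16 wkpp (0.014). Within the diets, the values for 1 over 16 wkpp were 0.34 ± 0.31 in MNEB and 0.45 ± 0.27 in SNEB.

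ITIH5 was highest before calving. Its normalized exonic counts were 3873, 3395 and 3382 at -4 wkpp. In the SNEB libraries these counts were 2374, 3644 and 1698 at 1 wkpp and 1757, 2048 and 2404 at 16 wkpp. In the MNEB libraries they came to 911, 1046 and 1459 at 1 wkpp and to 2762, 1457 and 1416 at 16 wkpp. The 3 MNEB libraries at 1 wkpp lay below all libraries at -4 wkpp and in SNEB, as they did for 13.5% of the 10455 genes, whereas at 16 wkpp library a of MNEB was the highest of both diets.

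In means, ITIH5 had 3550 ± 280 (SD, n = 3) at -4 wkpp, 2572 ± 988 in SNEB at 1 wkpp, 2070 ± 324 in SNEB at 16 wkpp, 1879 ± 766 in MNEB at 16 wkpp and 1139 ± 286 in MNEB at 1 wkpp, and each neighbouring pair overlapped. The log2 fold change of -4 wkpp over MNEB at 1 wkpp was 1.70 ± 0.22 in exonic reads and 1.33 ± 0.23 in whole gene reads. With limma adjusted p of 0.00061 and 0.012, ITIH5 passed the threshold in exonic reads and missed it in whole gene reads. The study names ITIH5 among biomarker candidates from its differentially expressed genes, found with DESeq2. Between SNEB and MNEB at 1 wkpp, the log2 fold change was 1.17 ± 0.30 (limma adjusted p = 0.032).

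The exonic and the whole gene reads of ITIH5 parted at 16 wkpp. Between SNEB and MNEB, the log2 fold change was 0.24 ± 0.28 in exonic reads and -0.35 ± 0.25 in whole gene reads, opposite in sign and neither near the threshold. From 1 to 16 wkpp in MNEB, ITIH5 was lower at 1 wkpp by -0.67 ± 0.30 in exonic and -0.88 ± 0.28 in whole gene reads on the log2 scale. The difference between the diets in this change was 0.93 ± 0.44 in exonic reads (limma adjusted p = 0.99).

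The genes most like ITIH5 over the 15 libraries were ADIRF, CCDC3, CCDC69, RETSAT and ABHD11, with Pearson's r of 0.936, 0.931, 0.911, 0.904 and 0.903 on the log2 scale. RETSAT encodes retinol saturase, and ADIRF is named as a regulator of adipogenesis. All of them had their highest mean at -4 wkpp and their lowest in MNEB at 1 wkpp. CCDC3 averaged 4813 normalized counts at -4 wkpp and 504 in MNEB at 1 wkpp, and RETSAT 948 and 196.

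The share of exonic reads among all reads of a gene differed between the diets for ITIH4 and ITIH5, in opposite directions. For ITIH4, exonic reads made up 68.9 to 76.1% of the whole gene reads at -4 wkpp and in SNEB, and 78.6 to 93.4% in MNEB. For ITIH5, the share was 59.6 to 74.2% at -4 wkpp and in SNEB, and 50.2 to 57.7% in MNEB. No library of MNEB overlapped with the others for either gene. Of 10257 genes with a mean normalized exonic count of 10 or more and whole gene reads in each library, 12.0% had a share that was higher in MNEB without overlap and 0.39% one that was lower. A2M was almost wholly exonic, with 94.2 to 98.8% at -4 wkpp and in SNEB and 89.2 to 96.2% in MNEB, where the ranges overlapped.

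**Figure D3:**
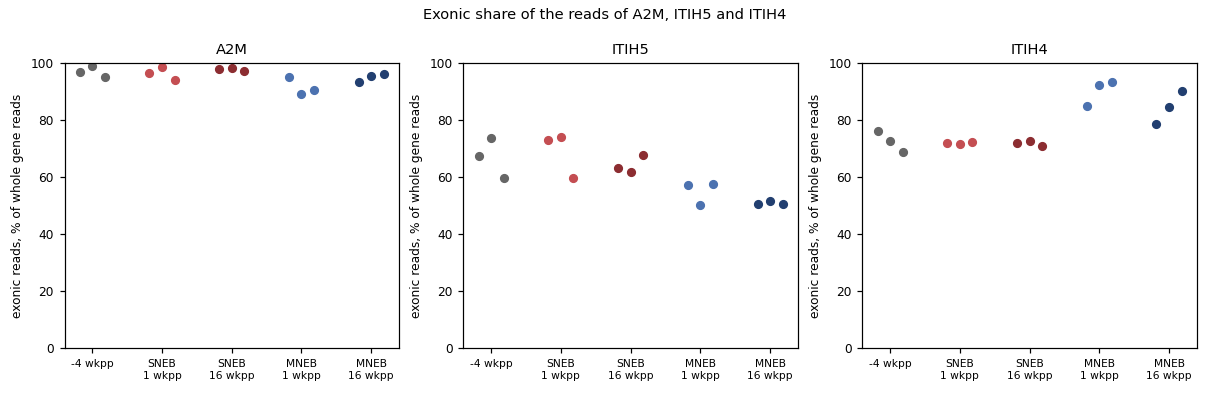
Exonic reads as a percentage of whole gene reads (vertical axes, 0 to 100) for A2M, ITIH5 and ITIH4 in the 5 groups; each point is a library. ITIH4 is at 78.6% or more in the 6 MNEB libraries and at 76.1% or less in all others, whereas ITIH5 is at 57.7% or less in MNEB and at 59.6% or more elsewhere.

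Over the solved genes together, exonic reads were 40.9 to 55.3% of the whole gene reads at -4 wkpp and in SNEB and 47.7 to 60.6% in MNEB. These ranges overlapped. The reads of ITIH5 outside its exons had a normalized count of 1661 ± 301 (SD, n = 3) at -4 wkpp, 1084 ± 232 in SNEB and 946 ± 216 in MNEB at 1 wkpp, and 1099 ± 164 in SNEB and 1974 ± 655 in MNEB at 16 wkpp. Outside the exons of ITIH4, the counts ran from 70.4 to 198 at -4 wkpp and in SNEB and from 70.8 to 279 in MNEB (ranges of single libraries). Their means were 113 ± 42.6 in MNEB and 174 ± 27.8 in SNEB at 1 wkpp, and 186 ± 106 in MNEB and 123 ± 29.4 in SNEB at 16 wkpp. Reads of another transcript within a gene cannot be told apart from its own introns in these counts.

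A2ML1, ITIH2, ITIH3, AMBP and ITIH1 had few reads. A2ML1 had normalized exonic counts of 12.3 to 34.1 at -4 wkpp and in SNEB and of 25.7 to 56.7 in MNEB, from 7 to 61 reads a library. ITIH3, a heavy chain of the inhibitor, had 6.72 to 36.1 at -4 wkpp and in SNEB and 2.57 to 45.9 in MNEB. ITIH2, another heavy chain, stayed between 1.04 and 27.0 and reached the mean of 10 needed for a test in 3 of the 6 comparisons. None of these 3 genes was called in any comparison. The log2 fold changes of A2ML1 in exonic reads lay between -0.97 and 0.79 with SEs of up to 0.52, and those of ITIH3 and ITIH2 had SEs of up to 0.89. Differences within these errors, and larger ones that miss the threshold, could not be detected. These SEs include the spread between libraries, and the part of depth in them was not tested.

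AMBP and ITIH1 stayed under the minimum in all 6 comparisons and were not tested. AMBP had 22 exonic reads in the 15 libraries together, of which 11 were in library c of MNEB at 1 wkpp, 3 each in library c at -4 wkpp and library a of SNEB at 16 wkpp, and at most 2 in any other. ITIH1 had 29 exonic reads, with 9 and 5 in libraries b and c of MNEB at 1 wkpp and 5 each in library c at -4 wkpp and library a of SNEB at 16 wkpp. In SNEB at 1 wkpp ITIH1 had 0 of the 38181778 exonic reads of the solved genes in the group. This allows a share of up to 7.86e-06% (3 counts over the group, counting error only).

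Except for ITIH3, the summed reads of the scarce members were mostly outside exons, which for A2ML1 and ITIH2 came from a few libraries. Over all libraries, exonic reads were 37.9% of the whole gene reads of A2ML1, 31.6% of those of ITIH2, 23.4% of those of AMBP and 40.8% of those of ITIH1, against 82.3% for ITIH3 and 97.1% for A2M. In the 10 libraries without the raised counts described next, 317 of 563 reads of A2ML1 and 75 of 147 of ITIH2 were exonic, the larger part. Libraries b and c of MNEB at 1 wkpp had normalized whole gene counts of 306 and 275 for A2ML1, while library a had 55.7. For ITIH2 they had 130.0 and 123 against 7.50 in library a.

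**Figure D4:**
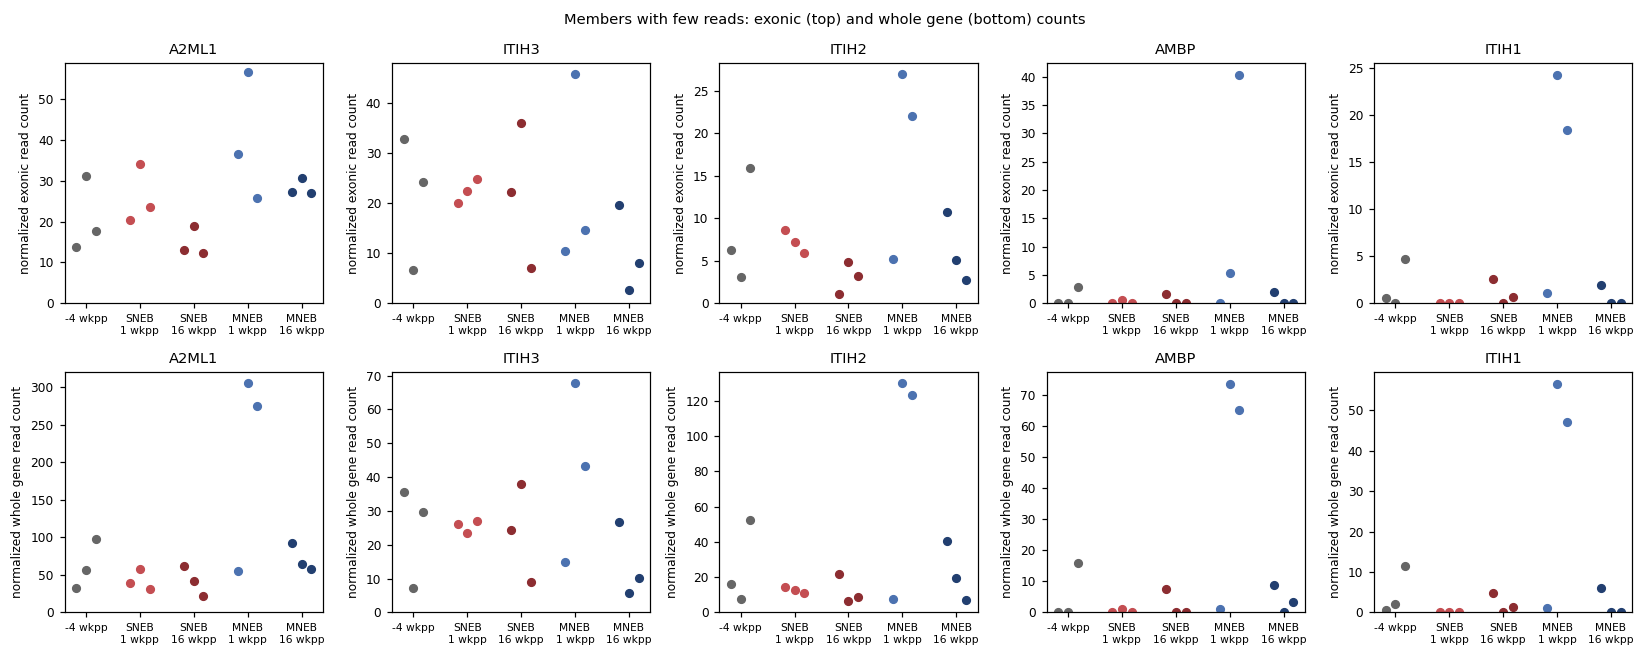
Normalized read counts of A2ML1, ITIH3, ITIH2, AMBP and ITIH1 (vertical axes, from 0) in the 5 groups, from exonic reads in the upper row and whole gene reads in the lower row; each point is a library. In whole gene reads, libraries b and c of MNEB at 1 wkpp stand apart from library a, for A2ML1 with 306 and 275 against 55.7.

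The same libraries had raised counts in other genes with few reads. Among the 3433 genes with a mean normalized exonic count below 10, the members left out, the mean normalized whole gene count was 7.36 to 14.2 in 10 libraries. It was 53.7 in library c at -4 wkpp, 21.7 in library a of SNEB at 16 wkpp, 131 and 140 in libraries b and c of MNEB at 1 wkpp, and 27.6 in library a of MNEB at 16 wkpp. These 5 libraries held 95.7% of the whole gene reads of AMBP, 90.1% of those of ITIH1, 61.6% of those of ITIH2 and 48.8% of those of A2ML1, but 33.6% of those of ITIH3. The whole gene counts of the 4 former members summed to 95.4 to 566 normalized counts in the 5 libraries and to 31.4 to 84.5 in the other 10. What these reads stem from was not tested.

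**Figure D5:**
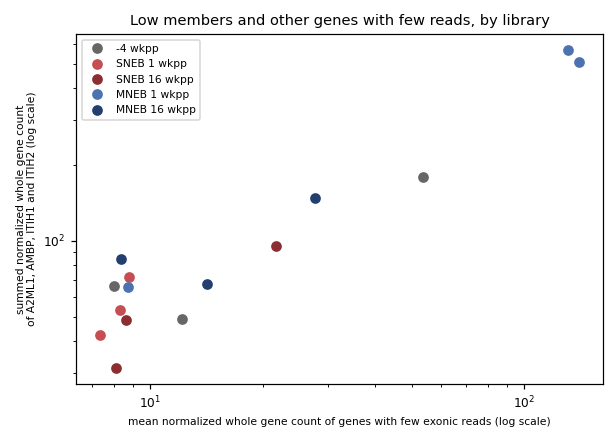
Summed normalized whole gene counts of A2ML1, AMBP, ITIH1 and ITIH2 (vertical axis, log scale) against the mean normalized whole gene count of the 3433 other genes with few exonic reads (horizontal axis, log scale); each point is 1 of the 15 libraries, coloured by group. The 5 libraries above 20 on the horizontal axis are also the 5 highest on the vertical axis, at 95.4 to 566.

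Several liver genes that accompany AMBP and the heavy chains in hepatocytes had few reads as well. Of 12 hepatocyte markers, albumin (ALB) had normalized exonic counts of 0 to 29.4, and APOA2, AHSG and HPX were between 0 and 18.9. The largest values of ALB, AHSG and HPX were in MNEB at 1 wkpp. APOA1 (92.1 to 527), TTR (11.7 to 460) and FGG (16.2 to 330) had more reads. The 12 markers summed to 347 to 809 in MNEB and to 839 to 7096 elsewhere, and at -4 wkpp, where the sum was 3940 to 7096, TF, which adipose tissue also expresses, had 3445 to 6226 normalized counts.

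With the 5 libraries left out and the remaining 10 in 1 fit, A2M, ITIH4 and ITIH5 kept the direction of their exonic differences in the 3 comparisons of MNEB with another group. For -4 wkpp over MNEB at 1 wkpp, the log2 fold changes were 2.64 for A2M, -1.83 for ITIH4 and 1.99 for ITIH5, with a single MNEB library left that was taken to vary like the other groups. None of the 3 was called in that fit (limma adjusted p in whole gene reads of 0.017, 0.048 and 0.028). At 16 wkpp, A2M was called with a log2 fold change of 2.99 between SNEB and MNEB. ITIH5 at 16 wkpp kept its sign in exonic reads, at 0.63, while its whole gene value turned from -0.35 to 0.05, so that the signs were no longer opposite in that fit. Within MNEB, A2M turned to 0.49 from -0.13 for 1 over 16 wkpp.

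The partners of these proteins were followed in 4 lists of genes. Of the list of A2M relatives and LRP1-type receptors, 8 of 16 genes were analysed, among them LRPAP1, the chaperone of LRP1, and 0 were called in any of the 6 comparisons, in which 0.0 to 5.19% of all genes were called. With so few genes, a count of 0 is near these rates. Their median log2 fold change was 0.29 between -4 wkpp and MNEB at 1 wkpp, beside 0.05 for all genes tested, and -0.46 between SNEB and MNEB at 1 wkpp, beside 0.07. With limma on exonic reads alone, 0 of these 8 genes passed 0.01 either. So few genes cannot tell this from the shares of all genes that passed in this way, whose counts are given in the last section.

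Of 17 genes of hyaluronan synthesis, binding and breakdown that were analysed, 16 were tested between -4 wkpp and MNEB at 1 wkpp, and 3 were called, all higher before calving, against 2.92% of all genes. Without 1 library, as few as 2 of all genes were called in this comparison, so the 3 calls of the list do not all hold. The median log2 fold change of the list was 0.21, beside 0.05 for all genes. TNFAIP6, the enzyme that moves heavy chains onto hyaluronan, had 432 to 577 normalized exonic counts at -4 wkpp and 56.7 to 140 in MNEB at 1 wkpp, a log2 fold change of 2.32 ± 0.35 (limma adjusted p = 0.0011). VCAN, a large hyaluronan-binding proteoglycan, had 10961 to 16276 and 1308 to 3671 (2.44 ± 0.36). LYVE1, a hyaluronan receptor and also a marker of the lymphatic list above, had 829 to 1250 and 103 to 191 (3.03 ± 0.31).

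At 16 wkpp, 2 of 15 hyaluronan genes tested were called, against 5.19% of all genes, both higher in SNEB than in MNEB. LYVE1 had a log2 fold change of 2.93 ± 0.33 and TNFAIP6 of 1.32 ± 0.25, the latter with 439 to 657 normalized counts in SNEB and 170 to 274 in MNEB. The median of the list was 0.68, beside 0.03 for all genes. In the other comparisons 0 genes of the list were called, and between SNEB and MNEB at 1 wkpp 1 of 16 passed in exonic reads alone. The count of all genes that passed there in this way, of 10475 tested, is given above with A2M.

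Of the genes that build the chondroitin sulfate chain of bikunin, 9 of 12 were analysed and 0 were called in any comparison, against 0.0 to 5.19% of all genes, with medians of the log2 fold change between -0.11 and 0.42, beside -0.03 to 0.07 for all genes. Between -4 wkpp and MNEB at 1 wkpp, 1 of the 9 passed in exonic reads alone. This is no larger a share than that of the 10518 genes tested, whose count under this rule is given in the last section.

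Of the other inhibitors of secreted proteases, 15 were tested between -4 wkpp and MNEB at 1 wkpp, and 4 were called, all higher before calving (2.92% of all genes were called), with a median log2 fold change of 1.42 over the list beside 0.05 over all genes. SERPINF1, a secreted serpin also known as pigment epithelium-derived factor, had 2929 to 3831 normalized counts at -4 wkpp and 78.4 to 202 in MNEB (4.60 ± 0.32). CST3, an inhibitor of cysteine proteases, had 13959 to 18904 and 1321 to 2239 (3.21 ± 0.26). SERPING1 had 7544 to 10668 and 1854 to 2117 (2.28 ± 0.21). Without 1 library, as few as 2 of all genes were called in this comparison, so the 4 calls of the list do not all hold.

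At 16 wkpp, 3 of 15 were called, against 5.19% of all genes, and the median was 0.68, beside 0.03 for all genes. All 3 were higher in SNEB than in MNEB, namely CST3 (log2 fold change 2.23 ± 0.24), SERPING1 (2.08 ± 0.20) and TIMP2, an inhibitor of matrix metalloproteases (1.34 ± 0.23). Between SNEB and MNEB at 1 wkpp 0 of 15 were called (0.0% of all genes), and the median was 0.93, beside 0.07 for all genes. In exonic reads alone, 2 of 15 passed there. By that rule 6 of 15 passed between -4 wkpp and MNEB at 1 wkpp, and 6 of 15 between SNEB and MNEB at 16 wkpp. The counts of all genes that passed in this way are given in the last section. In the other comparisons 0 were called, with medians of 0.41 for -4 wkpp over SNEB at 1 wkpp, -0.45 for 1 over 16 wkpp in MNEB and -0.30 in SNEB. The lists were chosen with earlier results of these libraries known, and the comparisons that share a group share its 3 libraries.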

How the data were processed

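RNA of 15 adipose tissue libraries (TruSeq Stranded, Ribo-Zero, single reads) was processed by the authors with bcl2fastq 2.15.0, Cutadapt 1.3, TopHat2 on the bosTau8 genome, and htseq-count on exons and on whole genes, per the labels and the study's methods. The deposited tables, 1 for each of 6 comparisons, give per gene the authors' mean over 6 libraries of counts divided by DESeq2 size factors. They also hold the authors' own comparison (log2 fold change, its error, test statistic, p and adjusted p), which was not used. The study reported differentially expressed genes in all 6 comparisons, also in those where limma called 0. The tables had 0 columns of other samples.

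The design was fixed on counts, which the tables do not list. The means have 15 significant digits, and the whole-number counts of each library were solved from them: the step of 1 read gave each size factor, and the tables that held a read gave the library's group. As a check, 500 rows were drawn among genes of low to medium counts. Their means in a table kept aside were all predicted, in both analyses. The counts of A2M and ITIH5 lay above the range drawn from, so this check does not cover them. Counts were solved for 13891 of 13896 genes in both analyses. The 92 spike-ins were left out of tests.

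Levels are counts over size factors of all 15 libraries (mean ± SD, n = 3). Per the study's methods, RNA came from 3 cows per group, each animal was biopsied at all times, and the libraries were pooled for sequencing. Repeated samples of a cow could not be tied and were fitted as separate samples. Comparisons used voom and moderated tests of limma 3.58.1 (R 4.3.3) on the counts of 6 libraries, on genes whose exonic count averaged 10 or more, Benjamini-Hochberg adjustment over all genes tested, and calls below 0.01 in both analyses. The fit was tested on simulated data. Named were all members, the called genes of the lists (at most 3 per direction), and the 5 genes most correlated with A2M and with ITIH5. Members and lists were chosen with earlier results of these data known. Depth was 2027116 to 14652050 exonic reads of the solved genes. The limit given for a count of 0 covers counting error only, whereas SDs and SEs include the spread between libraries. No sequences or coordinates were printed, since the annotation at hand (ARS-UCD2.0) is of another assembly. Python 3.11.15, numpy 2.4.6 and pandas 2.3.3 were used.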

Additional observations from a re-analysis of the deposited data

Results flagged for a closer look

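Spike-in RNAs were not part of the comparisons. In all 6 MNEB libraries, their share of exonic and spike-in counts together was above that of each library at -4 wkpp, where it was at most 9.04%. It was 17.2, 49.4 and 62.7% in libraries a, b and c at 1 wkpp and 17.2, 38.8 and 34.0% at 16 wkpp. The spike-ins did not enter the size factors over 15 libraries, which gave the levels of the members. The fits of single comparisons used the authors' size factors, from data in which the 92 spike-ins have rows.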

How the results depend on the processing

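Calls of all genes depended on the settings. Between -4 wkpp and MNEB at 1 wkpp, 307 genes were called, 1734 with exonic reads alone, 1270 at an adjusted p below 0.05, 67 without the filter on low counts, 1143 with all 15 libraries in 1 fit and 7 in the fit of 10 libraries, which was chosen after seeing the data. Without 1 library the count ran from 2 (without -4 wkpp library b) to 288 (without MNEB library a), with 3 and 12 without the other -4 wkpp libraries and 59 and 41 without MNEB libraries b and c. Between -4 wkpp and SNEB at 1 wkpp, 6 were called, and 53, 99 and 38 with the first 2 and the 15-library alternatives, 23 with size factors over 15 libraries, and 25 and 22 with limma-trend at pseudocounts of 1 and 5. Without 1 library it was 0 to 159, the latter without SNEB library b and 0 without -4 wkpp library a or c or SNEB library a or c. Between SNEB and MNEB at 1 wkpp, the count of 0 became 108, 285 and 356 under the same 3 alternatives, and 0 to 374 without 1 library, the latter without MNEB library a. At 16 wkpp, the 533 called became 1066 with exonic reads alone, 1533 at 0.05, 271 without the filter and 40 in the fit of 10 libraries, and 112 (without SNEB library a) to 369 without 1 library, with 240, 235, 202 and 116 without SNEB library b and MNEB libraries a, b and c. The 2 comparisons within a diet and the difference between them had 0 calls in all alternatives run.

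Values of the members had the same direction and side of the threshold in most alternatives, and those that turned sign were never called. In whole gene reads, the log2 fold change turned to -0.50 (ITIH3, -4 wkpp over MNEB), 0.39 (A2ML1) and 0.50 (ITIH2, both -4 wkpp over SNEB), -0.11 (ITIH3, SNEB over MNEB at 1 wkpp), -0.35 (ITIH5, 16 wkpp) and -0.59 (A2ML1, difference between the diets). ITIH3 between -4 wkpp and MNEB also turned to -0.08 with total counts and to -0.10 and -0.07 with limma-trend, and A2M within MNEB to 0.49 in the fit of 10 libraries. Without 1 library, ITIH3 ranged from -0.73 to 0.83 (-4 wkpp over MNEB), -0.91 to 0.39 (-4 wkpp over SNEB), -0.35 to 0.72 (within SNEB), -0.34 to 0.88 (SNEB over MNEB at 1 wkpp) and -1.27 to 0.12 (difference between the diets). ITIH2 ranged from -0.31 to 0.38 (-4 wkpp over SNEB), A2M from -0.31 to 0.15 within MNEB, ITIH5 from -0.05 to 0.50 within SNEB and ITIH4 from -0.10 to 0.46 (difference between the diets). Without the filter on low counts, A2M (2.86) and ITIH4 (-2.14) between -4 wkpp and MNEB lost their calls, where more genes were tested. With all 15 libraries in 1 fit, calls were gained by ITIH5 (1.68, -4 wkpp over MNEB, also with limma-trend), A2M (3.22, 1 wkpp) and ITIH4 (-1.38, 16 wkpp). The causes of the other changes were not tested. No paired analysis was possible because the labels give no shared replicate numbers and the libraries carry none in the tables, although the study sampled each cow repeatedly.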
